A study of Homo sapiens with 6 samples.

Results

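miR-224 and miR-452 are encoded by a pair of neighbouring hairpins inside GABRE, the gene of the epsilon subunit of the GABA-A receptor. The arrays held 1 probe for each arm of both hairpins, namely miR-224-5p, miR-224-3p, miR-452-5p and miR-452-3p, which were taken by their names and are 4 of 2565 miRNA probes. The cells were Panc-1, a line established from a pancreatic ductal adenocarcinoma, in which TGF-β, a secreted cytokine, is used to induce the epithelial–mesenchymal transition (EMT). RNA was collected at 72 h from 3 samples of untreated control cells (0 ng/mL) and from 3 samples that had received TGF-β at 10 ng/mL, labelled with Cy5 and hybridized to 1 array per sample. The samples come from a single cell line and the labels do not say whether they were separate cultures, so p-values cover only the spread between these samples, which may be technical. The scanner outputs carried one code for all control arrays and another for all TGF-β arrays. What the code stands for is not given in the sources used here, and a slide or run that it marks cannot be told apart from the treatment.

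A miRNA hairpin is cut by DROSHA and DICER into a short duplex, of which one arm or the other is loaded into an Argonaute protein and guides it to mRNAs that pair with the seed of the miRNA. Hairpins within an intron are commonly made from the transcript of their host gene, so that neighbours such as these can share one primary transcript. miR-224 is known as a miRNA that is raised in several carcinomas and has been described as acting on SMAD4, a transducer of TGF-β signals. GABRE mRNA was not measured on these arrays.

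In GRCh38.p14, MIR224 lies on the minus strand of chrX:151958578-151958658 and MIR452 on the minus strand of chrX:151959628-151959712, and their facing ends were 970 bp apart. Both lie within the annotated interval of GABRE, chrX:151953124-151974676, whose start site is also on the minus strand. The exons of GABRE were not in the tables used here, and the array files carry no coordinates. The hairpins are shown from 5′ to 3′ with both arms in capitals, because each arm had its own probe and is described by itself. They were taken from RefSeq.
MIR224: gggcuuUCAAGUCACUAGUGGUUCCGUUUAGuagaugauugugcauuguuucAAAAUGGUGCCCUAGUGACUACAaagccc
MIR452: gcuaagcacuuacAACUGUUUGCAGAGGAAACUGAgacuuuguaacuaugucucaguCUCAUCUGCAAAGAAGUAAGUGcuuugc

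The mature arms follow with their seeds (bases 2 to 8) in capitals, since the seed decides which mRNAs a miRNA can recognise.
hsa-miR-224-5p: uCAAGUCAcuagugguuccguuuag
hsa-miR-224-3p: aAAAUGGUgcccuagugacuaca
hsa-miR-452-5p: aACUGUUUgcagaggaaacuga
hsa-miR-452-3p: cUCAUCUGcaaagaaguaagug

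The 4 seeds differ from each other. Among 2370 human mature miRNAs of the RefSeq table, the seed of miR-452-5p was shared by miR-4676-3p and miR-892c-3p, and the seeds of the other arms by none. The arms were 22 to 25 bases long, with 44.0% G and C in miR-224-5p, 43.5% in miR-224-3p and 40.9% in each arm of miR-452.

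Levels are given as the scanner's median spot intensity and as the height of that signal over the blank spots of the same array. Each array had 320 blank spots, whose trimmed means were 18.2 to 21.3 intensity units with SDs of 0.528 to 0.768, and a miRNA was counted as detected where its signal was more than 2 SD above that mean. By this limit 1531 to 1787 miRNAs were detected per array, the most on TGF-β replicate 2. The limit was a low one. Of the 320 blank spots themselves, 18 to 25 per array were above it. Each array also had 32 spots named negative control, of 3 probes, and 16 to 24 of them were above the limit. The brightest was Negative Control 1, with medians of 3.47 to 4.82 SD above the blank mean, whereas Negative Control 2 had medians of 0.0139 to 1.12 SD.

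In control cells the 3p arm of miR-224 was above the detection limit on 2 of 3 arrays, and miR-224-5p and both arms of miR-452 on none. In TGF-β-treated cells both arms of miR-224 were above it on all 3 arrays, miR-224-5p narrowly, and miR-452 again on none. Neither arm of miR-224 was called by limma, and the arms of miR-452 did not meet its detection rule and were not tested by it. On no array did any of the 4 reach the brightest negative control spot.

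miR-224-5p, the arm usually described as the guide strand, gave 19.5, 20.3 and 20.7 intensity units in the control replicates, whereas the TGF-β replicates had 20.8, 20.2 and 22.3 units. Against the blank spots of the same arrays these were 1.87, 1.87 and -0.84 SD in the control replicates, whereas the TGF-β replicates had 2.11, 2.69 and 2.05 SD. It was thus detected on none of the 3 control arrays and on all 3 TGF-β arrays, and in units of blank SD the groups did not overlap. The exact permutation test of these heights gave p = 0.1 (2-sided), the smallest that 3 arrays against 3 allow. Of all 2565 probes, 8.62% had groups that did not overlap on this scale with TGF-β higher, and 2.03% with TGF-β lower. The median height of all miRNA probes was 3.24, 3.60 and 3.63 SD on the control arrays and 3.43, 4.95 and 3.56 SD on the TGF-β arrays.

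The change from not detected to detected rested on small differences. Control replicates 1 and 2, at 1.87 SD, were just below the limit of 2 SD, and TGF-β replicates 1 and 3, at 2.11 and 2.05 SD, just above it. On the TGF-β arrays, 16, 8 and 20 of the 320 blank spots and 19, 21 and 21 of the 32 negative control spots were at or above the signal of miR-224-5p. With a limit of 3 SD it was detected on 0 arrays. Among all probes, 10 (0.390%) had this pattern of detection on all TGF-β arrays and no control array, while the opposite pattern was seen for 1 probe (0.0390%). In the processed values of the authors, miR-224-5p had no value for control cells and values of 6, 7 and 5 for TGF-β-treated cells, where the lowest value of any miRNA on an array was 5.

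miR-224-3p, the opposite arm of the same hairpin, was detected on 5 of the 6 arrays. Its signals were 19.4, 22.1 and 25.1 intensity units in the control replicates, whereas the TGF-β replicates had 22.6, 20.4 and 23.3 units. They were 1.72, 4.87 and 4.89 SD above the blank mean in the control replicates, whereas the TGF-β replicates had 4.86, 3.10 and 3.65 SD. Only control replicate 1 was below the detection limit, and the groups overlapped, with the control arrays at both ends of the range. The exact permutation test of the heights gave p = 1 (2-sided). The authors' processed values were 13 and 13 for control replicates 2 and 3 and 13, 8 and 10 for the TGF-β arrays. At most 7 of the 320 blank spots were at or above the signal of miR-224-3p on the arrays where it was detected, but between 3 and 18 of the 32 negative control spots were. Its height was above the median of Negative Control 1 on 3 arrays, control replicates 2 and 3 and TGF-β replicate 1, and below it on the other three.

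miR-452-5p, the arm usually described as the guide strand of its hairpin, gave 18.2, 19.5 and 21.5 intensity units in the control replicates, whereas the TGF-β replicates had 20.7, 19.3 and 20.1 units. These were -0.081, 0.60 and 0.31 SD from the blank mean in the control replicates, whereas the TGF-β replicates had 1.96, 0.99 and -1.15 SD. The highest of the 6, on TGF-β replicate 1, was just below the limit, and the TGF-β arrays spread to both sides of the control arrays (exact permutation test, 2-sided p = 0.8, where 0.1 is the smallest possible).

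miR-452-3p gave 17.2, 20.1 and 21.1 intensity units in the control replicates, whereas the TGF-β replicates had 20.0, 19.2 and 21.2 units. These were -1.54, 1.61 and -0.21 SD in the control replicates, whereas the TGF-β replicates had 0.95, 0.88 and 0.46 SD, so the TGF-β arrays lay inside the range of the control arrays (exact permutation test, 2-sided p = 0.5). Neither arm of miR-452 had a processed value on any array. Detection on 0 of 6 arrays was shared by 522 of the 2565 probes (20.4%). No fold change is given for miR-452, because both groups were not above background, and the signals show only that miR-452 was not detectable with this limit, not that it was absent. With a limit taken from the blank spots of the same block of the array, miR-452-5p was above it on 1 array and miR-452-3p on 2. In RNA from whole cultures, fewer cells with a miRNA and less of it per cell cannot be told apart.

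**Figure D1:**
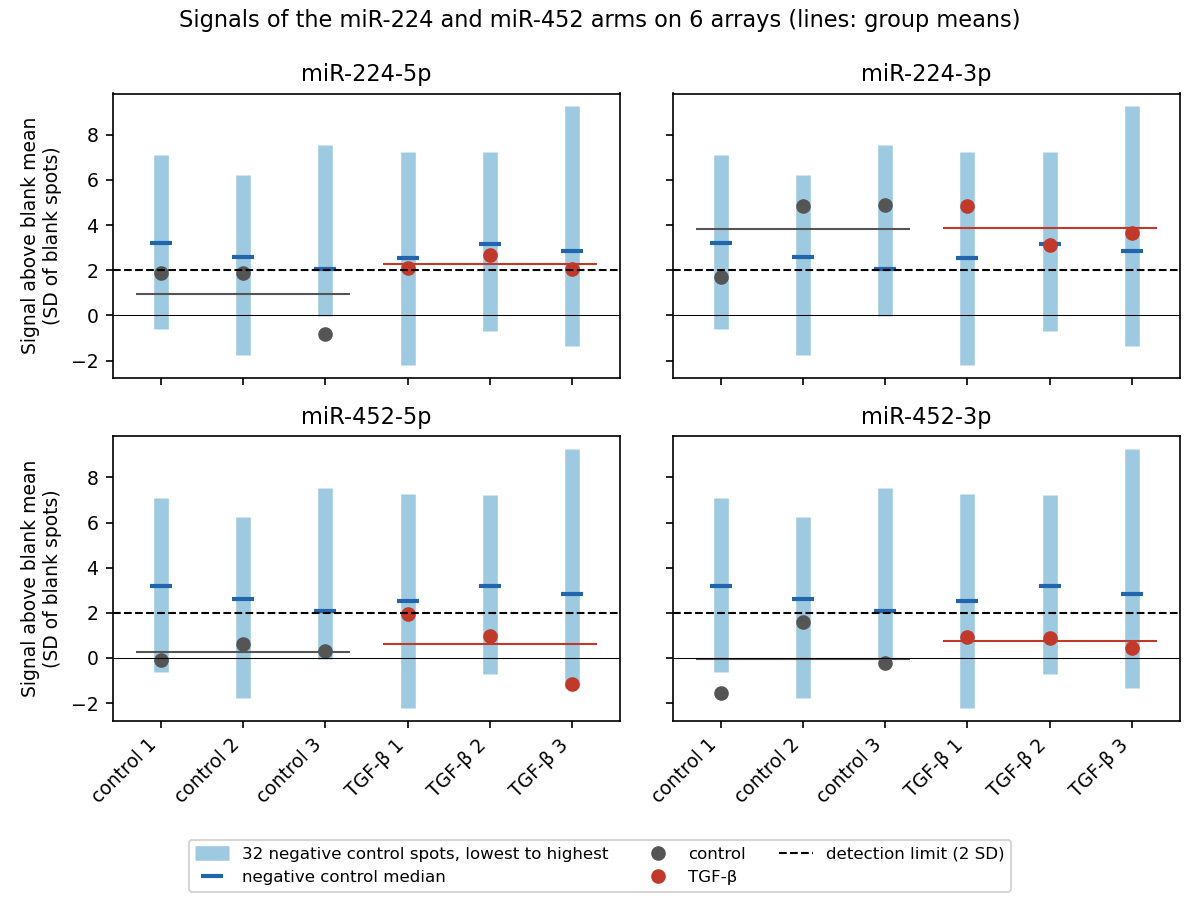
Height of each probe's signal over the mean of the blank spots (vertical axis, in SD of the trimmed blank spots of the same array) for the 3 control and 3 TGF-β arrays (horizontal axis). Points are single arrays, thin horizontal lines are group means, the dashed line is the detection limit of 2 SD, and blue bars and dashes give the range and the median of the 32 negative control spots. miR-224-5p passed the limit on the TGF-β arrays only, at 2.05 to 2.69 SD, and no point lies above the blue bar of its array.

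The groups were compared with limma on log2 values after subtraction of the blank mean and quantile normalization. The test was run on 1457 miRNAs, those above the limit throughout 1 group or both, which included miR-224-5p and miR-224-3p through their detection on the TGF-β arrays, and not miR-452. Of all tested miRNAs, 58 were called at an adjusted p under 0.05 (3.98%), 38 higher in TGF-β-treated cells (2.61%) and 20 lower (1.37%). The split moved with the scaling, to 37 higher and 12 lower with median scaling and 27 and 8 without normalization. With the deposited values, which also leave out signals below the limit, it was 27 and 4. Neither of the 2 tested arms was called, nor was either at an unadjusted p under 0.05 in limma or in the methods' t-test.

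For miR-224-5p the normalized log2 values were 0.46, 0.31 and 0 in the control replicates, whereas the TGF-β replicates had 0.57, 0.34 and 0.48. On this scale the groups overlapped, since control replicate 1 was above TGF-β replicate 2, and control replicate 3 was at the floor. Groups that did not overlap on this scale were found for 8.79% of the tested miRNAs with TGF-β higher and for 10.1% with TGF-β lower. The means were 0.26 ± 0.24 (SD, n = 3) and 0.46 ± 0.12 (SD, n = 3). The fitted log2 difference was 0.21 (standard error 0.39, adjusted p = 0.894 from limma), with a 95% interval from -0.66 to 1.07. Without the intensity trend in limma the standard error was 0.15, so the interval is not the spread of these values alone. The log2 difference was 0.54 with a floor of 0.5, 0.073 without control replicate 3, 0.33 without control replicate 1 and -0.10 with the local background (offset 0). The fitted difference is not a measured fold, because the control signals were not above background. With the control arrays set to the lowest value of any detected miRNA, the bound on the log2 difference was -0.0046, which is below a fold of 1, so no fold is given. The exact permutation test gave p = 0.2 (2-sided).

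For miR-224-3p the normalized log2 values were 0.35, 1.67 and 1.72 in the control replicates, whereas the TGF-β replicates had 1.77, 0.56 and 1.28. The means were 1.25 ± 0.78 (SD, n = 3) and 1.21 ± 0.61 (SD, n = 3), and the spread within each group was far larger than the difference between them. The fitted log2 difference was -0.040 (standard error 0.43, adjusted p = 0.993 from limma). Its 95% interval, -0.99 to 0.91, runs from 0.505-fold to 1.87-fold, so a change of either sign within these bounds was not detectable with these arrays. The median standard error over all tested miRNAs was 0.18. Without control replicate 1 the difference was -0.48 (adjusted p = 0.636 from limma), and without TGF-β replicate 2 it was 0.28 (adjusted p = 0.830 from limma). Without control replicate 2 it was 0.17 and without control replicate 3 it was 0.19, so single arrays set its sign. With the deposited values it was -0.36 (adjusted p = 0.882 from limma).

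**Figure D2:**
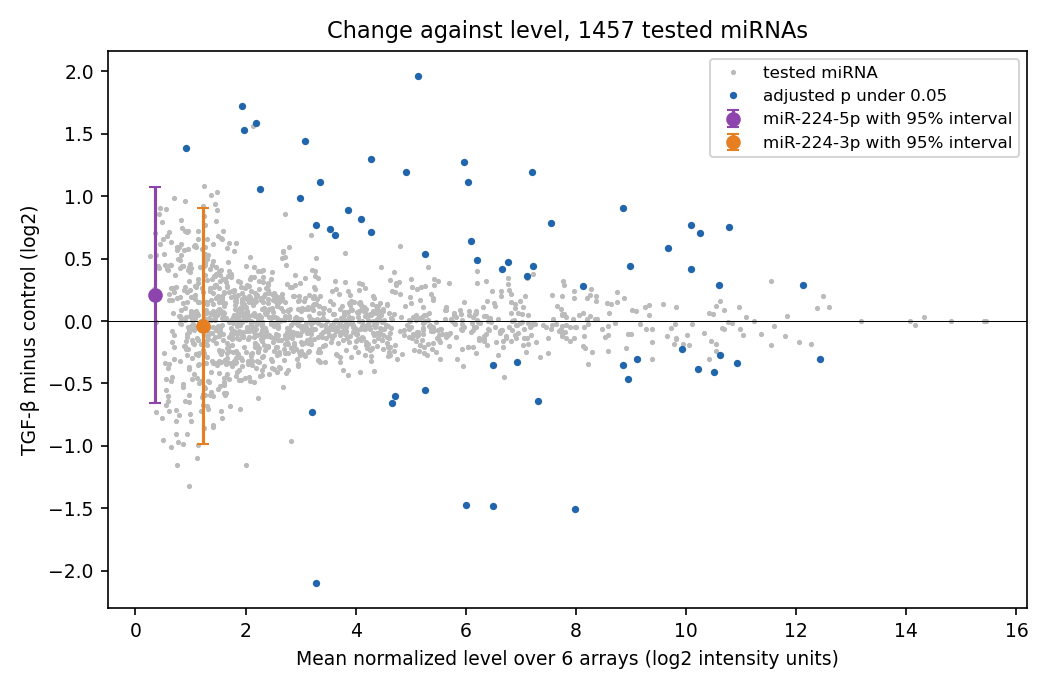
Difference between TGF-β-treated and control cells (vertical axis, log2) against the mean normalized level over the 6 arrays (horizontal axis, log2 intensity units) for the 1457 tested miRNAs. Grey points were not called, blue points had an adjusted p under 0.05, and the larger points with 95% intervals are miR-224-5p (0.21) and miR-224-3p (-0.040), which lie at the low end of the levels with intervals that include 0.

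The arms of MIR224 were also compared within each array. The log2 difference of miR-224-5p minus miR-224-3p changed by 0.25 between the groups (exact permutation test, 2-sided p = 0.7, where 0.1 is the smallest possible), from -0.99 ± 0.97 (SD, n = 3) in control cells to -0.74 ± 0.49 (SD, n = 3) in TGF-β-treated cells. This was the only pair tested, as no arm of miR-452 qualified. The change was smaller than the SD within either group. It was -0.12 without control replicate 3, 0.81 without control replicate 1 and 0.58 with a floor of 0.5. As miR-224-5p was not detected on any control array, and miR-224-3p not on control replicate 1, the control values are not measured differences, and the comparison does not show whether the arms changed alike.

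GABRA3 is the gene of another subunit of the same receptor. Its interval (chrX:152166234-152451315) lies 207576 bp from that of MIR224 and holds MIR105-1, MIR767 and MIR105-2. Of their 4 arms on the array, miR-105-5p alone was detected, on all 6 arrays, at 2.01, 3.25 and 3.69 SD above the blank mean in the control replicates, whereas the TGF-β replicates had 4.22, 4.65 and 2.47 SD. Its groups overlapped, and its fitted log2 difference of 0.18 did not pass (standard error 0.33, limma adjusted p = 0.891). Single arrays set its sign too. It was -0.025 without control replicate 1 and -0.021 without TGF-β replicate 1, but 0.33 without control replicate 3 and 0.38 without TGF-β replicate 3. With the deposited values it was 0.39. It was 0.011 with the background from blank spots of the same block and 0 with the negative control background. miR-105-3p, miR-767-5p and miR-767-3p were detected on no array, with heights of at most 1.48 SD.

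Within 2 Mb of MIR224 and outside these genes, the array had probes for the arms of MIR2114 and for miR-4330. miR-4330 was detected on all 6 arrays (2.92 to 5.20 SD) and miR-2114-3p on 5, and miR-2114-5p was not detected. The log2 differences were 0.29 for miR-4330 (standard error 0.27, adjusted p = 0.722 from limma) and -0.65 for miR-2114-3p (standard error 0.34, adjusted p = 0.447 from limma), and neither passed the test. Without single arrays the difference of miR-4330 ran from 0.11 (without control replicate 3) and 0.19 (without TGF-β replicate 1) to 0.48 (without control replicate 2). That of miR-2114-3p ran from -0.90 (without TGF-β replicate 1) and -0.75 (without control replicate 2) to -0.42 (without TGF-β replicate 3). The latter was -0.12 with the deposited values and -0.082 with the negative control background, with which miR-4330 was at 0.18. Of the miRNAs with the seed of miR-452-5p, miR-4676-3p was detected on no array. miR-892c-3p was detected on TGF-β replicate 2 only, at 2.88 SD, and its spot on control replicate 1 was flagged by the scanner and left out.

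**Figure D3:**
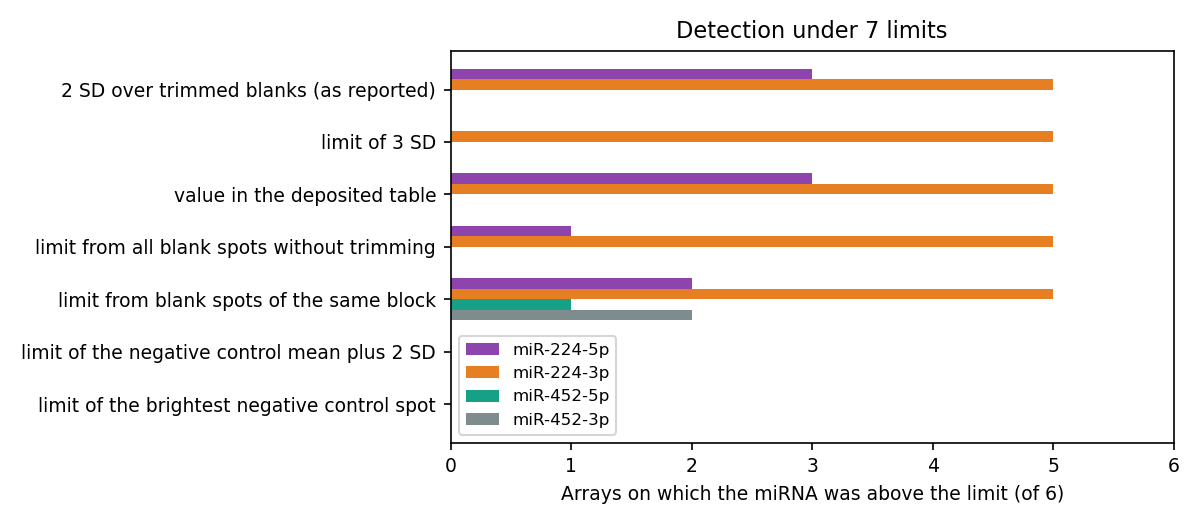
Number of arrays, of 6, on which each arm was above the detection limit (horizontal axis) for 7 limits (vertical axis), with 1 bar per arm and no bar where the number was 0. miR-224-3p was above the limit on 5 arrays with every limit taken from blank spots and in the deposited table, miR-224-5p on 0 to 3, and no arm was above either limit taken from the negative control spots.

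The 13 miRNAs of a list commonly described as raised by TGF-β were read beside miR-224. All 13 were tested, 3 were called higher and 1 lower, beside 2.61% higher and 1.37% lower of all tested miRNAs, and their median log2 difference was 0.066, compared with -0.013 over all tested miRNAs. With median scaling in place of quantile normalization the median of the list was 0.30. The largest differences were those of miR-143-3p (1.57, adjusted p = 0.0931 from limma), which did not pass, and of miR-181b-5p (1.28) and miR-181a-5p (1.19), which rose. miR-23a-3p, of a cluster with miR-27a, also rose (0.29), and miR-10b-5p, encoded in the HOXD cluster, was lower (-0.38). miR-27a-3p (-0.036) and miR-24-3p (0.10), of the same list, were not called. With the local background (offset 50) the difference of miR-10b-5p was 0.23 and no member of the list was called. The differences were then 0.075 for miR-181b-5p, 0.52 for miR-181a-5p, 0.026 for miR-143-3p and 0.33 for miR-23a-3p. The call of miR-10b-5p was also lost with median scaling, without normalization, with the deposited values, without a filter, without a trend and with the methods' t-test. Without a filter, without a trend, with the methods' t-test or without TGF-β replicate 2, 2 members were called higher, and with the replicate block or without control replicate 1, 4 were. Without TGF-β replicate 2 the difference of miR-143-3p was 1.03.

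The miRNAs whose profile over the 6 arrays was most like that of a tested arm were named by the root mean square difference of log2 values, with each miRNA's own mean taken out. For miR-224-5p they were miR-4747-3p (0.063), miR-3137 (0.073) and miR-1237-5p (0.076), but 818 of the tested miRNAs were within 0.3, and the SD of its own values over the arrays was 0.20. For miR-224-3p they were miR-5189-5p (0.22), miR-30b-3p (0.25) and miR-4676-5p (0.28), and only these 3 were within 0.3. None of these 6 miRNAs was called, and the likeness is a description of 6 values.

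Marker miRNAs of the labelled cell type and of other cell types were read on the same arrays. miR-21-5p, miR-31-5p, miR-221-3p and miR-222-3p were detected on all arrays at 409 SD above the blank mean or more, whereas the epithelial miR-200c-3p was detected on 1 array and miR-141-3p on none. Of the same family but not among the markers chosen, hsa-miR-200b-3p and hsa-miR-200a-3p were among the tested miRNAs, with mean normalized log2 levels of 2.92 and 2.52 and without a call, so the family was not absent. Of the 6 blood cell miRNAs, miR-486-5p (22.1 to 34.6 SD) and miR-142-3p (2.15 to 10.1 SD) were detected on all arrays, and the other four on 2 to 5. The part of other cells in the levels of miR-224 was not tested. Of the acinar miRNAs, miR-216a-5p was detected on 2 arrays and miR-216b-5p and miR-217 on none. miR-375 of islet cells was detected on 1 array, whereas miR-7-5p was detected on all 6, at 409 to 894 SD.

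**Figure D4:**
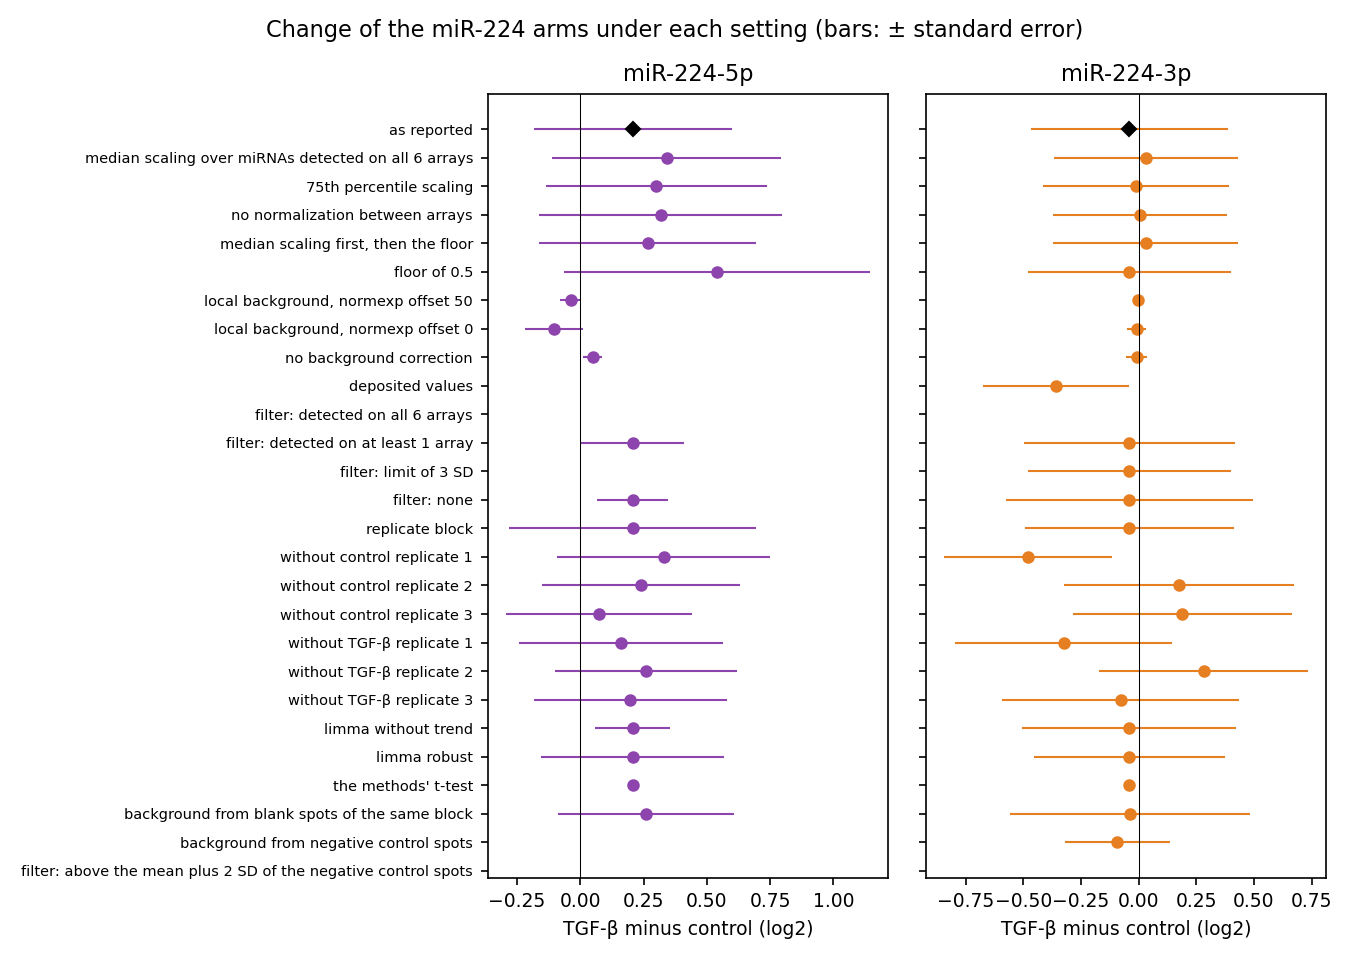
Log2 difference between TGF-β-treated and control cells (horizontal axes) for miR-224-5p (left) and miR-224-3p (right) as reported and under each other setting of the processing (vertical axis). Bars are standard errors, where the test gives one, and a missing point means that the setting gave no value. The exception is miR-224-5p with the negative control background, which did not differ between the groups and is not drawn. The points of miR-224-5p run from -0.10 to 0.54 and those of miR-224-3p from -0.48 to 0.28, on both sides of 0.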

How the data were processed

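For each of 6 arrays (3D-Gene, Toray) the authors deposited median spot intensity and median local background at 635 nm on a linear scale, without normalization, and a table of processed intensities. That table held values for the same miRNAs that were above the trimmed blank mean (5% left out at each end) plus 2 SD, and its median was 25 on every array; its method is not given in the sources used here. Here that blank mean was subtracted, with a floor of 1, flagged spots (3 of miRNAs) were left out, values were quantile normalized over the miRNA probes, and log2 values were compared with limma 3.58.1 (lmFit, eBayes with trend) in R 4.3.3, with Benjamini-Hochberg adjustment over 1457 miRNAs. The local background was not used in the main setting because on bright spots it was 0.434 to 0.990 of the signal (median per array). The procedure was tested on simulated data. Figures were drawn with matplotlib 3.10.9 in Python 3.11.15.

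The members, lists and tests were chosen with earlier results of these data known. The named miRNAs were the 4 arms, miRNAs of GABRA3, those within 2 Mb of MIR224, those that share a seed, a TGF-β list and the 3 nearest profiles, with marker miRNAs of carcinoma, blood, acinar and islet cells read as a check of the cell type. The alternatives were other normalizations, floors, backgrounds, filters and tests, the deposited values, the replicate block and each array left out. Limits and backgrounds from negative control spots or from blank spots of the same block, the limit from untrimmed blank spots and the alternatives for the difference between the arms were chosen only once the data had been seen. The number of arrays and the small distance to the background limit the precision.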

Additional observations from a re-analysis of the deposited data

How the results depend on the processing

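No alternative gave either arm of miR-224 an adjusted p under 0.05 (0.645 to 0.992 for miR-224-5p, 0.636 to 1.00 for miR-224-3p). The log2 difference of miR-224-5p turned to -0.039 and -0.10 with the local background (normexp, offsets of 50 and 0), which at its spots was 15.2, 17.4 and 14.3 units in control and 20.6, 12.6 and 16.4 units in TGF-β-treated cells. That of miR-224-3p turned to 0.031 with median scaling, before or after the floor, and 0.0068 without normalization. The difference between the arms turned to -0.035 and -0.095 with the local background. Leaving out single arrays, the differences ran from 0.073 to 0.33 for miR-224-5p, from -0.48 to 0.28 for miR-224-3p and from -0.12 to 0.81 between the arms. The deposited values and the filters on all 6 arrays, at 3 SD or by negative control spots gave no value for miR-224-5p. The filters on all 6 arrays or by negative control spots gave none for miR-224-3p. With the negative control background miR-224-5p did not differ between the groups, and the difference of miR-224-3p was -0.092. For miR-224-5p that setting is left out of the range of adjusted p above. The cause was not tested.

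miR-224-5p was detected on 0 arrays at 3 SD and on 1 with untrimmed blank spots. With blank spots of the same block miR-452-5p was detected on 1 array and miR-452-3p on 2. With the negative control mean plus 2 SD, or the brightest such spot, miR-224-5p and miR-224-3p were detected on 0.

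The count of 58 called miRNAs became 35 without normalization, 31 with the deposited values (whose median log2 difference was 0.11), 19 without a filter, 32 without a trend, 17 with the methods' t-test, 25 to 51 with each array left out (25 without TGF-β replicate 2, 33 without TGF-β replicate 3 and 35 without control replicate 2), and 0 with the local background at either offset, where limma gave 34 at an unadjusted p under 0.05. The replicate block gave 60 calls and the same log2 differences for both arms (adjusted p = 0.908 and 0.991 from limma). Same-numbered arrays correlated by 0.13, 0.11 and -0.027 in their deviations from the group means, so the numbers were not taken as pairs.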

Other observations

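The negative control spots also bear on the other miRNAs of the arrays. With the mean plus 2 SD of these spots as the limit, 861 to 1070 miRNAs were above it per array, compared with 1531 to 1787 above the limit from blank spots. When the test was run on the 872 miRNAs above that limit on every array of at least 1 group, limma called 60, 39 higher and 21 lower in TGF-β-treated cells, compared with 58 of 1457. The median height of the negative control spots was 3.20, 2.60 and 2.08 blank SDs in the control replicates, whereas the TGF-β replicates had 2.53, 3.18 and 2.85 (exact permutation test, 2-sided p = 0.7). The labels do not say what these probes are made to bind.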
